A study of Homo sapiens with 12 samples.

Results

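Long intergenic noncoding RNA genes that carry a LINC name were followed in A549, an established human line from a lung adenocarcinoma, in 12 RNA libraries. The genes were chosen by name and by level: their symbol begins with LINC, and they reached at least 1 CPM (a gene's count scaled to the library total) in at least 3 of the 12 libraries. Of 40605 genes in the deposited table, 2151 have such a name. Of these, 1409 had no count in any library, 558 were counted but missed the level, and 184 met both conditions. The level rule used the same counts that are described here, so the presence of these 184 genes is a choice and not a result.

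Long intergenic noncoding RNAs are transcripts, mostly spliced and polyadenylated, that lie mostly outside protein-coding genes and are not known to encode a full protein. They are typically made at lower levels than messenger RNAs and vary strongly between cell types. Some act on the gene next to them, some act elsewhere as scaffolds or decoys for proteins, and for many no function is known. Several have been studied in lung cancer cells, among them LINC00511 and LINC00857, and LINC-PINT is a known target of p53.

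The cells carry a doxycycline-inducible DYRK1B, a kinase, either as wild type (WT) or as the Y273F form, in which a tyrosine of the activation loop is replaced. Both lines were grown for 7 days, with doxycycline at 2 µg/ml or without any, and each of the 4 groups holds 3 libraries from populations kept in parallel. The titles put libraries 1 to 3 in WT control, 4 to 6 in WT doxycycline, 7 to 9 in Y273F control and 10 to 12 in Y273F doxycycline. All 12 share the A549 background, an inducible construct and 1 batch label. There is no transgene-free line, and the labels do not say whether each line is 1 clone. The libraries were made by 3' tag sequencing, which reads the end of polyadenylated transcripts, so a CPM is a level per transcript end and is not divided by length. Totals ran from 2783265 counts (library 10) to 22028624 (library 9), and 3 counts, the limit that a count of 0 allows, correspond to 0.136 to 1.08 CPM. In libraries 8 and 10 a gene reaches 1 CPM with 3 counts.

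The libraries did not follow their titles. DYRK1B itself stood at 27.3 CPM in library 4, 12.7 in library 8 and 20.1 in library 12, and at 2.66 to 7.81 CPM in the other 9 libraries. These 3 libraries carry the titles WT doxycycline 1, Y273F control 2 and Y273F doxycycline 3. A transgene without the natural 3' end of DYRK1B would not be read by this method, so the gene is a limited check. Over all genes, libraries whose numbers differ by 4 or 8 resembled each other: the chi-square per degree of freedom between the counts of a pair was 3.84 to 13.9 within the sets 1/5/9, 2/6/10, 3/7/11 and 4/8/12, against 6.03 to 60.6 between libraries of the same title group. This measure is taken on raw counts and so depends on depth, and the ranges overlap. The pairs within Y273F control stood at 6.03, 12.6 and 10.9. None of the pairs compared, within sets or within title groups, was close enough to be 1 library deposited more than once. The levels below are therefore given both by the titles' groups and by these library sets. The sets are not groups of the titles and the labels give them no condition, so for them only values, ranges and counts are given, with no mean, error or test.

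Of the 184 genes, 183 could be matched to a gene identifier with the same counts in all 12 libraries, and 178 had RefSeq coordinates on GRCh38.p14. GENCODE 29 lists 141 of them as lincRNA, 17 as processed transcripts, 13 as antisense, 7 as transcribed unprocessed pseudogenes and 1, LINC02693, as protein-coding. They are spread over the genome, with 18 on chromosome 1 and 13 on chromosome 2. No protein-coding gene overlapped 157 of them in GENCODE 29, while 14 overlapped one on the same strand and 12 only on the opposite strand. A protein-coding gene started head to head, within 2000 bp, for 16, among them LINC01184 with the transporter gene SLC12A2 and LINC-PINT with MKLN1. LINC01184 now carries the symbol SLC12A2-DT.

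Since the method reads polyadenylated ends, the last bases of the transcripts are shown for genes whose levels carry the results. In GENCODE 29, 125 of 183 genes (68.3%) had a transcript with AATAAA, the main polyadenylation signal, within its last 40 bases. This was so for 562 of the 1196 LINC genes with no count that GENCODE lists (47.0%) and for 9398 of 11834 protein-coding genes at the same CPM rule (79.4%). With ATTAAA, a variant of the signal, accepted as well, the shares were 76.5%, 56.3% and 90.9%. With AATAAA in only the longest transcript of each gene they were 53.0%, 41.1% and 61.4%. The expressed LINC genes had a median of 2 transcripts, those with no count 1, and the protein-coding genes 8, and a gene with more transcripts has more chances of a match. The sequences are the final 60 bases, 5′ to 3′ in DNA letters, of the longest transcript that holds the signal, with the signal in capitals. First come 3 of the most abundant genes, then 5 that differ between library sets.
LINC00963: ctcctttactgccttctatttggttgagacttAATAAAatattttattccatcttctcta
LINC01234: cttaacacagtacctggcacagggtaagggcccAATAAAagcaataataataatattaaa
LINC00467: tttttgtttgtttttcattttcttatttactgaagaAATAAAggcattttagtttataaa
LINC02869: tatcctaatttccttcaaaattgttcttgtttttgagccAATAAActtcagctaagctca
LINC01588: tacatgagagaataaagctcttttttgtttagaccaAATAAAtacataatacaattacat
LINC00261: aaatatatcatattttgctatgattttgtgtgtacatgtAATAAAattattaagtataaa
LINC01133: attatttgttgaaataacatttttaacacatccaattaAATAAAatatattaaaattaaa
LINC01433: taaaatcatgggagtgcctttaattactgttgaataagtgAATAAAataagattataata

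Not every abundant or variable member ends this way. LINC02582 was the most abundant of all in some libraries, and LINC02732 differed most between library sets among those with a ratio. Neither has a transcript with AATAAA in that window, but the end of LINC02582 holds the variant ATTAAA there. The ends of the longest transcripts of both genes are as follows.
LINC02582: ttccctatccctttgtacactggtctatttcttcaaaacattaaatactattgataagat
LINC02732: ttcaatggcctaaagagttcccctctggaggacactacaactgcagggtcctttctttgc

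Expressed LINC genes were a small and stable share of the RNA read. Together the 184 genes held 992 to 1119 CPM per library, which is 0.0992% to 0.112% of the counts. Between 126 and 143 of them reached 1 CPM in a given library, and 2 to 13 had no count there. The median over genes of the median level was 2.20 CPM, with quartiles of 0.939 and 4.73. Under the same rule the corresponding median was 3.00 CPM for 566 other long noncoding RNA genes and 23.4 CPM for 12038 protein-coding genes.

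**Figure D1:**
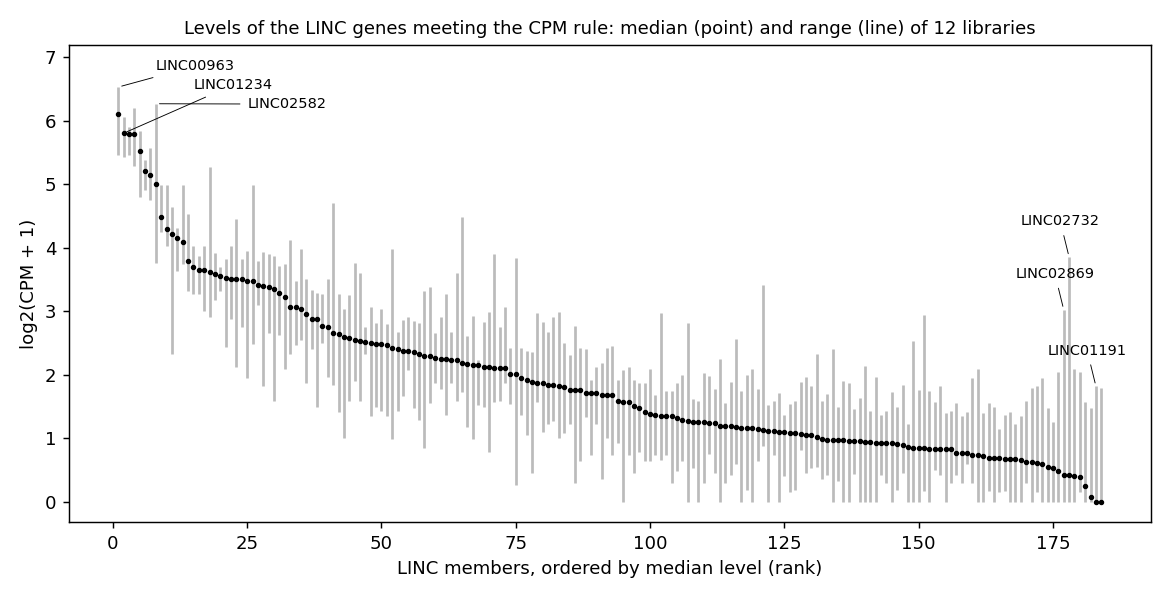
Level of each of the 184 expressed LINC genes, ordered by its median over the 12 libraries. The y axis is log2(CPM + 1), points are medians and grey lines run from the lowest to the highest library. LINC00963 leads with a median of 68.1 CPM, and LINC02732, LINC02869 and LINC01191 have long lines at the low end, where most libraries held few or no counts of them.

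A few genes held much of this RNA. The 12 genes with the highest medians carried 44.5% of all counts of the 184, 26 genes had a median of at least 10 CPM and 53 had a median under 1 CPM. At 1 CPM in all 12 libraries stood 81 genes, whereas 20 reached it in exactly 3. For 6 of those 20 the 3 libraries were 2, 6 and 10. No count in at least 1 library was found for 39 genes.

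LINC00963 (chromosome 9, 129488660 to 129513686), a spliced RNA first studied in prostate cancer, was the most abundant by median. It stood at 91.5, 89.5 and 86.6 CPM in libraries 1, 5 and 9, at 49.9, 43.3 and 48.9 in 2, 6 and 10, at 62.8, 88.7 and 73.4 in 3, 7 and 11, and at 58.6, 59.1 and 73.5 in 4, 8 and 12. Libraries 2, 6 and 10 were the lowest of the 12, and it ranked between 1 and 4 among the 184 genes in every library. By title its mean was 68.1 ± 21.3 CPM (SD, n = 3) in WT control, 63.8 ± 23.5 in WT doxycycline, 78.1 ± 16.5 in Y273F control and 65.3 ± 14.2 in Y273F doxycycline. These groups overlapped throughout.

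The next 3 genes had near-equal medians and their order is not set by these data. LINC01234 (chromosome 12, 113744577 to 113773683) ranged from 42.3 to 66.0 CPM, LINC02864 (chromosome 18, 73154058 to 73264498) from 43.1 to 59.0, and LINC00467 (chromosome 1, 211382755 to 211432535), which is reported to encode a small mitochondrial peptide, from 38.0 to 72.9. Ranks of 1 to 6 were taken by LINC01234 and by LINC00467, and 2 to 5 by LINC02864, depending on the library. LINC01184 followed with 26.9 to 56.1 CPM, LINC00662 with 28.98 to 40.6 and LINC00511 with 25.8 to 46.7. LINC00662 held the narrowest band of ranks among these 3, from 5 to 8.

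LINC00511 (chromosome 17, 72598041 to 72640472), an RNA often found raised in carcinomas, averaged 36.6 ± 10.5 CPM (SD, n = 3) in WT control, 40.8 ± 5.54 in WT doxycycline, 32.2 ± 3.34 in Y273F control and 34.3 ± 7.81 in Y273F doxycycline. LINC-PINT (chromosome 7, 130877562 to 131109925) averaged 7.39 ± 1.66, 6.73 ± 0.459, 5.97 ± 0.435 and 6.098 ± 1.78 CPM in the same order and never left the range of 4.31 to 9.13 CPM. Neither gene had a library set that lay wholly outside the other 9 libraries.

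Other genes of the leading 12 were less steady. LINC02582 (chromosome 18, 73324941 to 73349889) ranked from 1 to 23 over the libraries, and LINC00173 (chromosome 12, 116533422 to 116536513) ranked from 9 to 63. LINC02878, LINC00888 and LINC02210 completed the list, with 18.03 to 30.6, 15.3 to 30.8 and 11.3 to 18.9 CPM.

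At the edge of the rule, values on both sides were alike. Just inside it, the third highest library stood at 1.00 CPM for LINC01719, 1.01 for LINC01979 and 1.03 for LINC01311. Just outside it, this value was 0.990 CPM for LINC00526 and 0.984 for both LINC01389 and LINC01772.

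The question the titles pose is whether doxycycline, through WT or Y273F DYRK1B, changes the transcriptome of these cells. For the expressed LINC genes the titles' groups gave no called difference. Of 13047 genes tested with edgeR's quasi-likelihood test, 160 were among the 184; the other 24 were too low for the filter. At a Benjamini-Hochberg adjusted p under 0.05, 0 of the 160 and 0% of all genes were called in each of 4 comparisons: doxycycline against control in the WT line, the same in the Y273F line, the difference of these effects (the WT effect minus that in the Y273F line), and Y273F control against WT control. At an unadjusted p under 0.05 there were 1, 2, 3 and 2 of the 160 in that order, and 118, 215, 160 and 445 of all genes. DESeq2 and limma-voom also called none of the 160, with 1, 2, 3 and 4, and 1, 3, 3 and 4, at an unadjusted p under 0.05. The median log2 fold change of the 160 genes was -0.01, 0.12, -0.15 and -0.11, beside -0.00, 0.01, -0.02 and -0.03 over all genes tested. Without libraries 2, 6 and 10 the medians were 0.04, -0.01, -0.00 and -0.01, and again no LINC gene was called. Each title group holds libraries of different library sets. The spread within the titles' groups sets what these tests could see, and a gene that was not called is not shown to be unchanged.

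The genes with the smallest p values in each comparison are given next, and for some the groups compared did not overlap. LINC00857 (chromosome 10, 80207710 to 80219657), described in lung adenocarcinoma, stood at 3.44, 6.94 and 3.19 CPM in WT control, 2.22, 2.00 and 2.37 in WT doxycycline, 2.16, 1.00 and 2.68 in Y273F control and 3.23, 2.16 and 3.38 in Y273F doxycycline. The 3 WT control libraries lay above the 3 WT doxycycline libraries, at a log2 fold change of -1.01 (SE 0.42; edgeR adjusted p = 1.00), and above the 3 Y273F control libraries, at -1.12 (SE 0.42; edgeR adjusted p = 0.991). The value of 6.94 CPM in library 2 was the highest of the 12.

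LINC01094 had 0.89, 0 and 0.95 CPM in Y273F control and 4.31, 1.38 and 1.85 in Y273F doxycycline, with no overlap and a log2 fold change of 1.71 (SE 0.72; edgeR adjusted p = 0.990). In the WT line it stood at 0.69, 1.57 and 1.76 CPM without and 0.42, 0.53 and 0.98 with doxycycline. The WT effect minus the Y273F effect was -2.75 (SE 1.03; edgeR adjusted p = 1.00). The value of 4.31 CPM comes from library 10, the shallowest.

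LINC00630 went the other way in the Y273F line, with 1.90, 1.33 and 1.32 CPM without doxycycline and 0.36, 0.39 and 0.44 with it, a log2 fold change of -1.86 (SE 0.78; edgeR adjusted p = 0.990). WT control held 1.72, 0.45 and 0.11 CPM and WT doxycycline 1.11, 1.37 and 1.12, so the WT groups overlapped. LINC01547 had the smallest p of all, 0.0082 by edgeR for Y273F control against WT control (adjusted p = 0.991). It stood at 2.03, 4.00 and 1.498 CPM in Y273F control and at 0.46, 0.67 and 0.88 in WT control, a log2 fold change of 1.77 (SE 0.55). The remaining genes among the 3 smallest p values were LINC02614 (-0.999) and LINC01431 (-0.74) for WT doxycycline, LINC02593 (0.89) for Y273F doxycycline and LINC02482 (-0.85) for the comparison of the control groups, as log2 fold changes. All of these rest on low levels, under 9 CPM in any library.

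Counted by overlap alone, the titles' groups separated few of the 184 genes. WT control lay wholly above WT doxycycline for 4 genes and wholly below for 1, beside 1.74% and 1.51% of the 13460 genes that met the same CPM rule. Y273F control lay above Y273F doxycycline for 4 and below for 7 (5.97% and 5.13% of all such genes), and WT control lay above Y273F control for 6 and below for 6 (4.22% and 7.08%). WT control lay above Y273F doxycycline for 5 and below for 3 (2.18% and 3.25%), WT doxycycline above Y273F control for 6 and below for 8 (3.37% and 6.49%), and WT doxycycline above Y273F doxycycline for 5 and below for 4 (1.43% and 2.38%). These comparisons share libraries.

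Levels varied less within library sets than within titles' groups. The range over 3 libraries of log2(CPM + 1), averaged over the 4 sets, had a median of 0.53 over the 184 genes, against 0.78 for the 4 title groups. It was smaller within sets for 145 of the 184 (78.8%). Over all 13460 genes at the CPM rule the medians were 0.34 and 0.53, and the share was 80.5%, close to that of the LINC genes.

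At least 1 set stood apart, with its 3 libraries all above or all below the other 9, for 58 of the 184 genes. The matching share over all genes was not computed for the sets together, so 58 is no trait of the LINC genes. Shares over all genes are given for each set and side. The set 2/6/10 made up most of the 58. It lay above for 32 genes (17.4%, beside 18.7% of all genes at the CPM rule) and below for 16 (8.70%, beside 15.4%). A gene read only in this set had to pass the level rule through it, as 6 did, so these counts describe the chosen genes and support nothing more. The set 1/5/9 lay above for 5 genes and below for 3, beside 3.44% and 2.09% of all genes. The set 3/7/11 lay above for 4 and below for 3, beside 1.17% and 1.11%, and the set 4/8/12, which had the highest DYRK1B, above for 0 and below for 2, beside 1% and 1.46%.

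Taken in pairs, the sets differed most where 2/6/10 was one of them. Among the 184 genes, 1/5/9 lay wholly above 2/6/10 for 47 and below for 51, beside 28.1% and 26.6% of all genes at the rule. The set 2/6/10 lay above 3/7/11 for 52 and below for 37 (26.8% and 25.1%), and above 4/8/12 for 50 and below for 27 (25.6% and 21.2%). The set 1/5/9 lay above 3/7/11 for 20 and below for 15 (10.9% and 8.57%), and above 4/8/12 for 29 and below for 20 (16.4% and 11.7%). These pairs share libraries too.

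**Figure D2:**
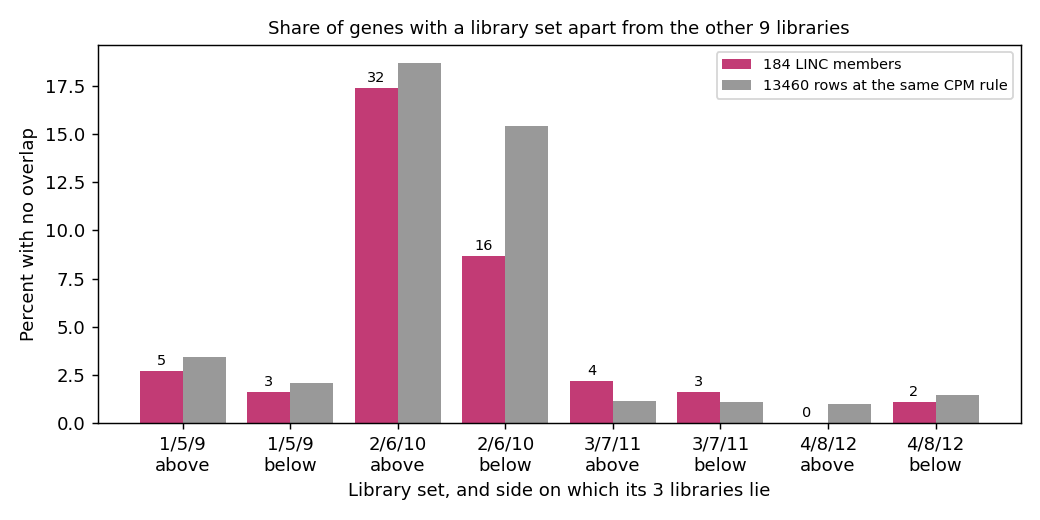
Share of genes for which a library set lies wholly above or wholly below the other 9 libraries, in percent, for the 184 expressed LINC genes (number over each bar) and for the 13460 genes at the same CPM rule. The set 2/6/10 has 32 LINC genes above and 16 below, and no other set has more than 5 on a side.

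Other markers moved with the set 2/6/10 and are given here once for all results on it. Of 9 genes listed for fibroblasts and smooth muscle, the sum was 306 to 383 CPM in libraries 2, 6 and 10 and 31.9 to 58.7 in the others. COL1A1 (136 to 196 CPM there), TAGLN (121 to 136), ACTA2 (35.2 to 36.7) and LUM (11.4 to 13.6) carried it. The defining genes DCN and COL1A2 stayed at or under 0.0454 and 0.359 CPM in all libraries, and PDGFRB at or under 0.895. The 8 lung epithelial markers summed to 8148 to 11033 CPM in this set and 3013 to 4664 elsewhere, nearly all of it from the keratins KRT8 and KRT18. The list did not move as 1: KRT19 was highest in the set as well (47.0 to 52.5 CPM against 19.1 to 38.6), but CDH1 was lowest there (24.4 to 30.6 against 44.4 to 65.3). EPCAM stood at 4.67 to 6.71 CPM in the set and 4.57 to 8.40 in 4/8/12, against 30.0 to 32.7 in 1/5/9 and 12.0 to 17.1 in 3/7/11. The lung lineage markers NKX2-1 and SFTPB were at or under 0.227 CPM and 0 in all 12, and NAPSA at or under 1.44. Among blood markers, CD14 stood at 5.01 to 10.9 CPM over the 12 libraries and HBB at 0.667 to 3.27, while PTPRC was at or under 0.224 CPM and CD3E at 0. The 3 endothelial genes summed to at most 0.590. The part of these shifts in the levels of the LINC genes was not tested.

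Among the genes high in libraries 2, 6 and 10, some were close to silent elsewhere. LINC02732 (chromosome 11, 110355114 to 110406908) stood at 13.4, 9.35 and 10.8 CPM in libraries 2, 6 and 10. It was at 0.344, 0.316 and 0.227 in 1, 5 and 9, at 0, 0.127 and 0 in 3, 7 and 11, and at 0, 1.00 and 0.982 in 4, 8 and 12. The lowest library of the set was 9.34 times the highest of the other 9. LINC01191 (chromosome 2, 113969322 to 114028082) had 6, 9 and 7 counts in the set, or 1.34, 1.26 and 2.52 CPM. It had 0 counts over the other 9 libraries as a whole, which allows up to 0.0367 CPM.

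LINC02869 (chromosome 1, 218510095 to 218525978) was read at 6.94, 7.12 and 5.39 CPM in the set and at 0 to 0.970 in the other 9, a gap of 5.56 times. LINC01588 (chromosome 14, 49981669 to 50007520) was read everywhere, at 2.29 to 5.40 CPM in the 9 libraries, and at 21.5, 16.7 and 18.7 in the set, a gap of 3.10 times. LINC00665 (chromosome 19, 36313061 to 36331753) rose from at most 1.18 CPM outside the set to 3.80, 6.70 and 4.31 within it. LINC01943 rests on 29 counts in all, with 2.46, 1.81 and 1.08 CPM in the set and a single other library, 4, at 0.277.

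Gaps of over 2 times were also found for LINC02742, LINC00488, LINC01895, LINC02577 and LINC00842, which are given because they complete the list and not by the naming rule. LINC02577 stood at 20.4, 18.8 and 25.1 CPM in the set and at 2.56 to 8.34 outside it. LINC00488 stood at 9.62, 7.95 and 7.90 CPM against 0.842 to 3.00, and LINC01895 at 10.5, 10.2 and 14.01 against 1.98 to 4.04. The other 21 genes above had gaps from 1.01 to 1.98 times, and among them LINC01322 reached 21.9 to 30.7 CPM in the set.

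**Figure D3:**
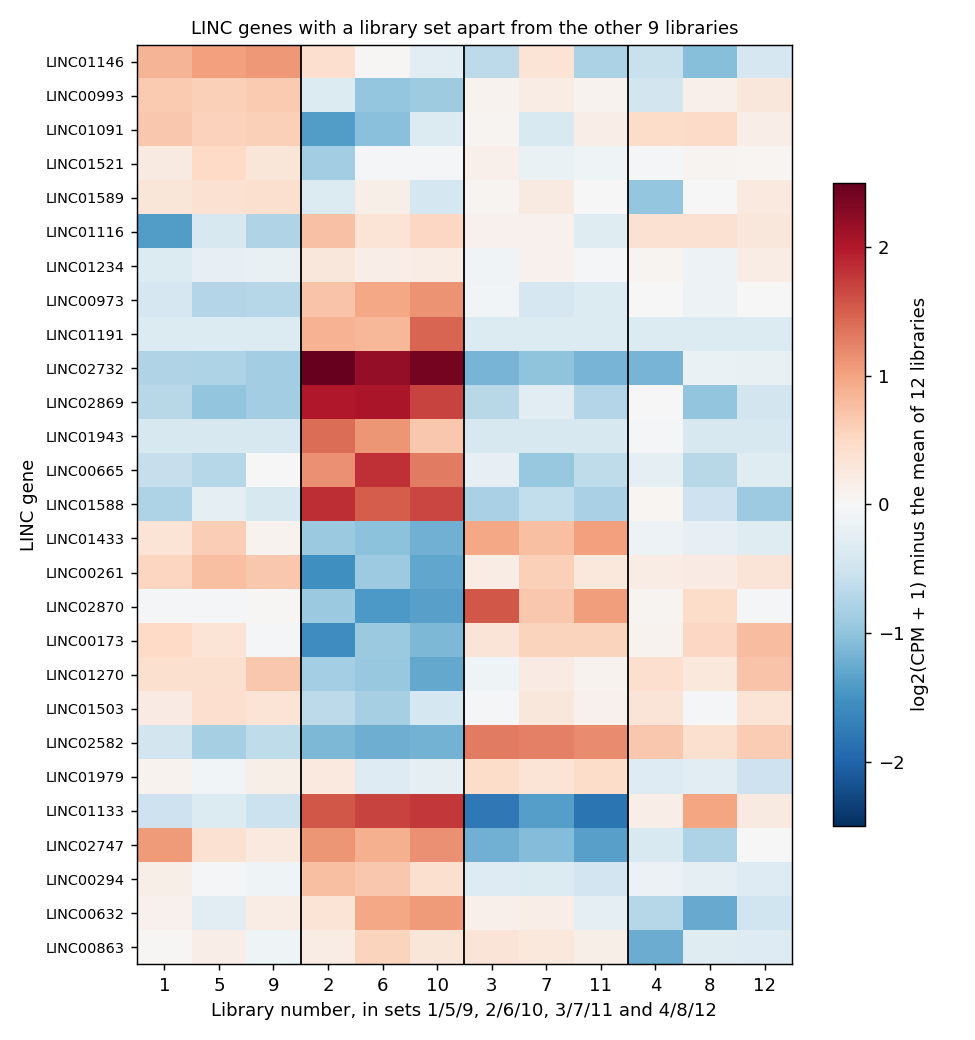
LINC genes named for a set that stands apart (rows) in the 12 libraries (columns, grouped by set). Colour is log2(CPM + 1) relative to the average of all 12 libraries for that gene, red above and blue below, and the scale ends at 2.5. LINC02732 and LINC02869 are red in libraries 2, 6 and 10 only, and LINC01133 is red there and blue in 3, 7 and 11.

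Fewer genes were low in libraries 2, 6 and 10. LINC01433 (chromosome 20, 4193090 to 4195953) stood at 0.224, 0.140 and 0 CPM there, at 1.95, 2.53 and 1.45 in 1, 5 and 9, at 3.52, 2.92 and 3.74 in 3, 7 and 11, and at 1.11, 1.00 and 0.873 in 4, 8 and 12. The values of the 4 sets did not overlap, and 3/7/11 was above all other libraries. Libraries 2, 6 and 10 held only 1, 1 and 0 counts, however. The count of 0 in library 10 allows up to 1.08 CPM, above the values of libraries 8 and 12. The gap between 2/6/10 and 4/8/12 is therefore not resolved. LINC02870 (chromosome 10, 132445189 to 132448306) had the same order at its ends, with 1.79, 0.977 and 1.08 CPM in 2, 6 and 10 and 14.7, 7.48 and 10.0 in 3, 7 and 11, and 4.15 to 6.34 in the remaining 6.

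LINC00261 (chromosome 20, 22560553 to 22578642), which lies beside the FOXA2 gene and is known from endoderm differentiation, stood at 2.01, 3.63 and 2.52 CPM in the set. It was at 11.6, 13.7 and 12.8 in 1, 5 and 9, at 8.91, 12.0 and 9.45 in 3, 7 and 11, and at 8.86, 9.01 and 9.82 in 4, 8 and 12. The lowest of the other 9 was 2.44 times the highest of the set. Its last 300 bases are identical over at least 100 bases to those of another annotated gene, AL121722.1, that GENCODE 29 lists, so reads of the pair cannot be told apart there.

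LINC00173 was at 4.03, 6.70 and 5.75 CPM in the set and at 13.5 to 24.0 in the others. LINC01270 (chromosome 20, 50292720 to 50314919) had 4.25, 3.91 and 2.87 CPM against 7.70 to 14.5. LINC01503 (chromosome 9, 129336923 to 129347477), described in squamous carcinomas, had 2.01, 1.67 and 2.52 CPM against 3.63 to 5.37. Of the 12 most abundant genes, LINC00963, LINC02864, LINC00467, LINC01184, LINC02582 and LINC00173 were all lowest in this set, with gaps of 1.00 to 2.01 times. Over all genes at the CPM rule 15.4% were below in this set. The share among genes of like level was not computed, so this is no trait of abundant LINC genes.

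LINC01133 (chromosome 1, 159961224 to 159979086) had a level of its own in each set. It stood at 11.4, 12.7 and 13.3 CPM in libraries 2, 6 and 10, at 3.74, 7.34 and 3.93 in 4, 8 and 12, at 1.95, 2.32 and 1.91 in 1, 5 and 9, and at 0.220, 0.634 and 0.197 in 3, 7 and 11. None of the 4 sets overlapped with another. By title, its mean was 4.53 ± 6.02 CPM (SD, n = 3) in WT control, 6.25 ± 5.63 in WT doxycycline, 3.29 ± 3.56 in Y273F control and 5.81 ± 6.75 in Y273F doxycycline.

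LINC02582 also had 4 levels without overlap, in another order. It was at 76.1, 73.8 and 70.1 CPM in libraries 3, 7 and 11, at 49.0, 40.4 and 48.0 in 4, 8 and 12, at 21.8, 16.6 and 19.2 in 1, 5 and 9, and at 13.4, 12.6 and 12.9 in 2, 6 and 10. By title its groups overlapped, with means of 37.1 ± 34.0 CPM (SD, n = 3) in WT control, 26.1 ± 19.99 in WT doxycycline, 44.5 ± 27.5 in Y273F control and 43.7 ± 28.8 in Y273F doxycycline. The standard deviation within each title group exceeded the range within any set.

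**Figure D4:**
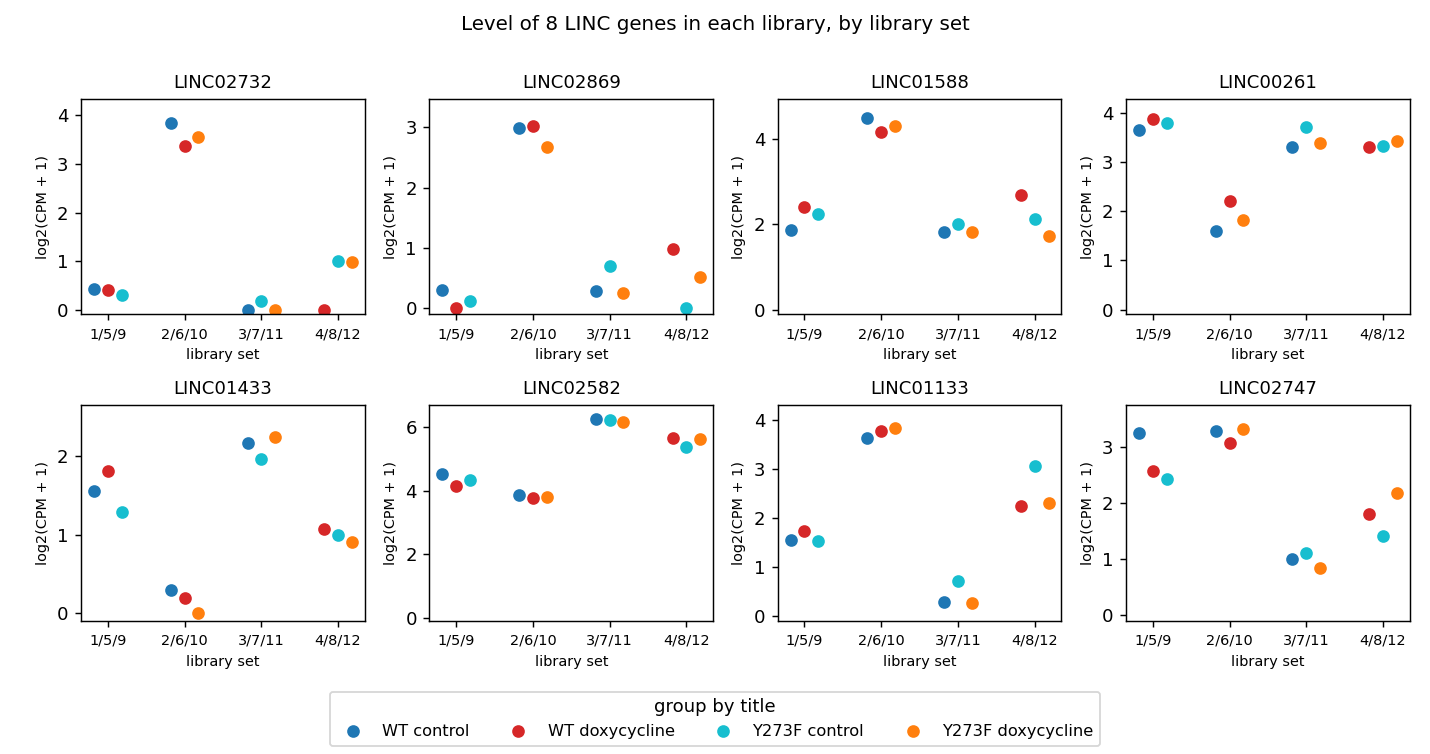
Level of 8 LINC genes in each library as log2(CPM + 1), by library set on the x axis and coloured by the group in the title. Within a set the 3 libraries of different titles lie together, as for LINC02582 at 70.1 to 76.1 CPM in 3/7/11 and 12.6 to 13.4 CPM in 2/6/10, and the colours do not separate.

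Sets 1/5/9 and 2/6/10 together lay above the other 6 libraries for LINC02747, LINC00294 and LINC02878 (1.9% of all genes at the rule) and below for LINC02582 alone (1.17%). LINC02747 (chromosome 11, 69475604 to 69481579) stood at 8.48, 4.95 and 4.36 CPM in 1, 5 and 9, at 8.73, 7.39 and 8.98 in 2, 6 and 10, at 0.990, 1.14 and 0.787 in 3, 7 and 11 and at 2.49, 1.67 and 3.49 in 4, 8 and 12. LINC00294 in the set 3/7/11 was below the rest by a gap of only 1.00 times. This split of 6 against 6 was added after the data were seen.

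The set 1/5/9 stood apart by small gaps. LINC01146 (chromosome 14, 88024550 to 88087346), now named HISLA after a reported role in stabilising HIF-1α, had 2.75, 3.26 and 3.40 CPM in libraries 1, 5 and 9 against 0 to 1.79 in the others, a gap of 1.54 times. LINC00993 had 7.22, 6.84 and 7.17 CPM against 1.67 to 5.35, and LINC01091 3.21, 2.95 and 3.00 against 0 to 2.67. LINC01521 and LINC01589 were above by 1.09 and 1.05 times. LINC00993, LINC01091 and LINC01589 were no longer apart after all libraries were thinned to the shallowest total. Below the rest were LINC01116 (chromosome 2, 176611437 to 176637609), near the HOXD cluster, with 2.52, 6.00 and 4.49 CPM against 6.49 to 14.3, and LINC01234 and LINC00973 by 1.03 and 1.00 times.

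The set 4/8/12, in which DYRK1B was highest, stood apart for LINC00632 and LINC00863 alone, both low and both by 1.19 times. After all libraries were thinned to the shallowest total, this no longer held for LINC00632. LINC00632 (chromosome X, 140709759 to 140791357), whose locus also gives rise to the circular RNA CDR1as, had 5.40, 3.34 and 6.44 CPM there and 7.68 to 20.8 elsewhere. LINC00863 had 1.80, 4.34 and 4.25 CPM against 5.18 to 8.79. Stretches of its end match NUTM2A, NUTM2B, NUTM2D and NUTM2E at 97% identity or more, with a highest identity of 100%. Against the set 3/7/11 only, libraries 4, 8 and 12 were wholly lower for 13 LINC genes and wholly higher for 15, beside 9.18% and 8.03% of all genes at the rule.

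Promoters are shown for the first gene of a set and direction where one could be matched and held a motif searched here. RefSeq windows of 300 bases on GRCh38.p14, from 250 bases before to 50 after the start, were matched to 128 of the 184 genes. They were searched on both strands for AP-1 (TGANTCA), TEAD (GGAATG), the GC box (GGGCGG), the TATA box (TATAAA) and the CCAAT box (CCAAT), and a match is marked in capitals as its letters read on the strand shown. LINC01116 (chr2:176637560-176637859, minus strand) was low in 1/5/9, LINC01433 (chr20:4192840-4193139, plus strand) low in 2/6/10, and LINC01133 (chr1:159960974-159961273, plus strand) low in 3/7/11.
LINC01116: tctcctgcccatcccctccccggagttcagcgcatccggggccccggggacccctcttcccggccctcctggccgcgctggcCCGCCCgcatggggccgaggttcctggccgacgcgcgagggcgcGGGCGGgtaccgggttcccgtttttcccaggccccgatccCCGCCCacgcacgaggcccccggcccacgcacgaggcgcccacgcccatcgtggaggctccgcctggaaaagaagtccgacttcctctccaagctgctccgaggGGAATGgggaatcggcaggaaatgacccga
LINC01433: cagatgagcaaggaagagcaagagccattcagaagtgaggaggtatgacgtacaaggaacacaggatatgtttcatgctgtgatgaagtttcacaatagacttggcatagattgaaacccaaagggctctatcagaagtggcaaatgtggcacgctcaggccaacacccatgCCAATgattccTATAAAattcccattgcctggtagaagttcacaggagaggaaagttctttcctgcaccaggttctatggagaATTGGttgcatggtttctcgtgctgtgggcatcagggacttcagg
LINC01133: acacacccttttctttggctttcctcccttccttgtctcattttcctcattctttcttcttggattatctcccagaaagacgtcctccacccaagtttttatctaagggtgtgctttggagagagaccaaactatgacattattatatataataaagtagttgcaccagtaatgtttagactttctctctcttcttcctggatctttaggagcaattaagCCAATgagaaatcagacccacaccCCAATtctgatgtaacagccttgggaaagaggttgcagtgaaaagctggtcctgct

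These windows differ in base content: G and C make up 72.7% of the LINC01116 window, 46.7% of that of LINC01433 and 41.3% of that of LINC01133. The windows of LINC01191, first above in 2/6/10, and LINC00632, first below in 4/8/12, are not shown. They hold none of the 5 motifs, which says only that these letters are not there. Over 27305 promoters, 7.76% hold AP-1, 14.05% TEAD, 44.6% a GC box, 12.0% TATAAA and 35.7% CCAAT. Of the 128 LINC promoters, 15, 23, 55, 19 and 51 hold them, in that order. For the 24 matched genes above in the set 2/6/10 the counts were 4, 4, 5, 7 and 8, and for the 10 below 2, 0, 4, 2 and 5. The median share of G and C was 46.5% in the 24, 61.0% in the 10, 57.8% in all 128 and 58.3% in all promoters. These are descriptions of genes chosen by their levels.

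For some of these genes the nearest protein-coding gene had the same set apart. Of 22 such neighbours at the CPM rule beside genes above in 2/6/10, 9 were above in that set too, among them TGFB2, ACTR3, FDX1, TCP11L1 and KRT7. Of 10 beside genes below, 5 were below: FOXA2, IER5L, SMOX, CEBPB and ERCC6L2. Over all genes at the rule the shares were 18.7% above and 15.4% below, and the LINC genes here were picked for their own pattern. For the set 1/5/9, 0 of 4 neighbours of genes above and 1 of 3 of genes below (DCBLD2) followed, and for 3/7/11 0 of 3 and 0 of 2.

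LINC02869 lies 65476 bp from TGFB2, which encodes a ligand of the TGF-beta family. TGFB2 stood at 90.5 to 100.2 CPM in libraries 2, 6 and 10, and at 10.8 to 16.4, 19.8 to 22.8 and 20.5 to 29.4 CPM in the sets 1/5/9, 3/7/11 and 4/8/12. Both genes of the pair were thus highest in the same 3 libraries, without overlap. ACTR3, an actin-nucleating subunit gene 6726 bp from LINC01191, had 181 to 205 CPM in 2, 6 and 10 and 104 to 124 in the other 9. FDX1, a ferredoxin gene 22423 bp from LINC02732, was higher by less, at 55.7 to 59.4 against 37.4 to 52.4 CPM.

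FOXA2, a transcription factor of endoderm and airway epithelium, lies 2356 bp from LINC00261. It stood at 107 to 116 CPM in libraries 2, 6 and 10, and at 226 to 232, 208 to 228 and 189 to 239 CPM in 1/5/9, 3/7/11 and 4/8/12. IER5L, 158662 bp from LINC01503, had 20.8 to 29.5 CPM in the set and 65.7 to 101 elsewhere. SMOX, the spermine oxidase gene 5363 bp from LINC01433, had 17.2 to 22.3 CPM in 2, 6 and 10, 30.9 to 45.0 in 1, 5 and 9, 36.0 to 51.2 in 3, 7 and 11 and 25.7 to 32.8 in 4, 8 and 12. CEBPB, 100030 bp from LINC01270, was at 44.9 to 62.4 CPM in the set and 67.0 to 90.7 in the others.

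Other neighbours differed from these. ARF6, a small GTPase gene 84615 bp from LINC01588, stayed at 119 to 146 CPM in all 12 libraries and its sets overlapped. NETO1, nearest to LINC02582 at 456954 bp, was at or under 0.105 CPM, and GPR65, 9739 bp from LINC01146, at or under 0.359. SLAMF9, whose RefSeq span overlaps that of LINC01133, was read only in libraries 2, 6 and 10, where LINC01133 was highest, but at or under 0.719 CPM, below the CPM rule, and so is not in the counts above. CCND1, the cyclin D1 gene 159577 bp from LINC02747, had 242 to 261 CPM in 2/6/10, 189 to 216 in 1/5/9, 144 to 183 in 3/7/11 and 179 to 212 in 4/8/12. It was thus highest in 2/6/10 without overlap, where LINC02747 was high together with 1/5/9, and its lowest library was 3, in the set where LINC02747 was lowest. MAP1LC3B2, 22868 bp from LINC00173, had 5.03 to 9.21 CPM in the set where LINC00173 was lowest and 0.990 to 5.67 CPM in the others.

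**Figure D5:**
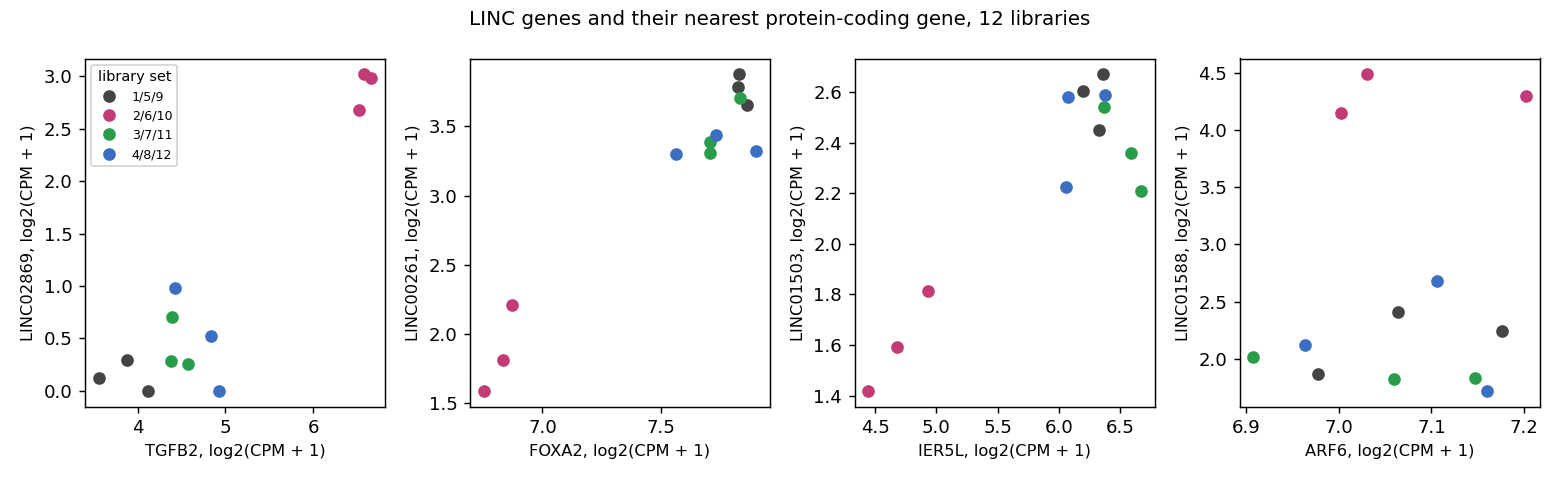
Level of 4 LINC genes (y axis) against that of the nearest protein-coding gene (x axis), both as log2(CPM + 1), with 1 point per library coloured by set. Libraries 2, 6 and 10 lie apart on both axes for LINC02869 with TGFB2, LINC00261 with FOXA2 and LINC01503 with IER5L, and on the y axis only for LINC01588 with ARF6, which spans 119 to 146 CPM.

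Long noncoding RNAs with names of another kind were read from a list of 52, of which 44 met the CPM rule. None of the 44 was called by edgeR in the 4 comparisons of the titles' groups, and 0, 0, 0 and 1 had an unadjusted p under 0.05. The set 2/6/10 was above the other 9 libraries for 7 of them and below for 14, beside 18.7% and 15.4% of all genes at the rule. The set 1/5/9 was above for 3 and below for 2, beside 3.44% and 2.09%. The set 4/8/12 was above for SNHG6, TP53TG1 and ZFAS1, beside 1%, and 3/7/11 for none in either direction. The list was not compared with the LINC genes by a test.

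MEG3, an imprinted RNA known for activating p53, stood at 14.7 to 23.04 CPM in libraries 2, 6 and 10 and at 1.60 to 4.67 in the other 9. CYTOR, a cytoplasmic RNA often raised in tumours, had 119 to 127 CPM there and 58.0 to 96.4 elsewhere. NORAD, which binds PUMILIO proteins, had 151 to 154 CPM in the set, 297 to 327 in 1/5/9, 240 to 296 in 3/7/11 and 247 to 289 in 4/8/12. CRNDE stood at 44.6 to 47.7 CPM in the set and 77.9 to 95.2 in the others. The snoRNA host genes SNHG3, SNHG6, SNHG8, SNHG29, GAS5 and ZFAS1 were all lowest in 2, 6 and 10, while SNHG14 was highest there, at 72.5 to 76.6 CPM. The other SNHG genes at the rule, SNHG1, SNHG5, SNHG7, SNHG12, SNHG15 and SNHG16, did not have 2/6/10 apart. Of these, SNHG12 and SNHG16 were lowest in 1/5/9, and SNHG12 stood at 28.2 to 30.5 CPM in 2, 6 and 10.

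Near-identical copies limit a few of the 184 genes. Over the last 300 bases of their transcripts, 8 of the 183 searched matched another gene over at least 100 bases at 97% identity or more. They were LINC00261, LINC00342, LINC00863, LINC00997, LINC01106, LINC01719, LINC01842 and LINC01881, of which LINC01106 matched another LINC gene, LINC01123. Levels of these 8 are uncertain to the extent that reads could be assigned to either copy.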

How the data were processed

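RNA of 12 A549 cultures was sequenced from the 3' end with the QuantSeq FWD V2 kit, per the labels' protocols. Reads were aligned with STAR to GRCh38.p14, per the submitters' processing notes. Not given in the sources used here are the annotation release, the STAR version and any use of molecular identifiers. Counts per gene are whole numbers, which the authors deposited unstranded, by transcript strand and by opposite strand. All 40605 rows of their merged count table equal transcript-strand rows. Reads assigned to no gene (35.5% to 43.2% of a library) were left out of totals and tests. Groups come from the titles and library numbers from the descriptions. The genes, lists and tests described here were chosen with earlier results of these data known.

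CPM is the count over the column total. A library set stands apart where its 3 values all lie above or all below the other 9, and the gap is the ratio of the nearest values on the 2 sides. Counts of the merged table were filtered with filterByExpr, scaled with TMM and tested with edgeR 4.0.16 (glmQLFit, glmQLFTest, R 4.3.3) with 1 mean per title group and no block, adjusted by Benjamini-Hochberg over all 13047 genes. The steps were tested on simulated counts. P-values measure the spread between the libraries of a title group, which come from different library sets, and not that of parallel cultures alone. Floors cover counting error only. Alternatives were DESeq2 1.42.0, limma-voom (limma 3.58.1), other scalings and filters, unstranded counts, a replicate block, only the groups compared, and leaving out libraries.

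Named genes are the 12 highest medians, up to 6 per set and direction by gap, the 3 smallest p values of each comparison, the 3 nearest the level rule on each side, LINC-PINT and LINC00511, and the nearest protein-coding genes of those apart by set. Coordinates and promoters are from RefSeq on GRCh38.p14, and strand, type and transcripts from GENCODE 29 on GRCh38; some promoters had no entry. One listed marker is not reported here.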

Additional observations from a re-analysis of the deposited data

Results flagged for a closer look

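The opposite-strand counts enter none of the comparisons above. For 5 of the 184 genes they exceeded the transcript-strand counts over the 12 libraries, and the median share on the opposite strand over all these genes was 0%. LINC01504 (chromosome 9, 72305436 to 72343210) had 1808 opposite-strand counts and 663 on its own strand. On the opposite strand it stood at 28.4 to 33.4 CPM in libraries 2, 6 and 10, and at 13.7 to 17.4, 14.6 to 21.3 and 13.5 to 18.8 CPM in the sets 1/5/9, 3/7/11 and 4/8/12, so that 2/6/10 lay above the other 9. LINC01943 had 147 against 29, and its opposite strand was read in all 12 libraries, whereas its own strand was read in 4. LINC01979 had 128 against 64 and LINC00271, now AHI1-DT, 92 against 69. LINC00513 had 138 against 120, and lies inside the span of LINC-PINT on the other strand. The source of these counts was not tested.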

How the results depend on the processing

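The called LINC genes numbered 0 under each alternative run, including each library left out in turn, in all 4 comparisons. The exception is the fit of only the groups compared, which was run for 3 comparisons and not for the difference of the effects. With the replicate number as a block, 0 were called and 0, 3, 3 and 3 had an unadjusted p under 0.05. Deviations of libraries with the same replicate number from their title-group means correlated at -0.69 to 0.57. These deviations include the differences between library sets, so they cannot decide whether the numbers pair the samples. The number of genes meeting the rule became 117 at 2 CPM in 3 libraries and 81 at 1 CPM in all 12. After thinning all libraries to the shallowest total, libraries 4, 8 and 12 were above for 1 gene and below for 1. The shares over all genes at the CPM rule were then 0.802% and 0.914%. With unstranded counts these libraries were below for 4 genes, and the share over all genes was not computed. The set 2/6/10 was above for 26 genes and below for 15 after thinning, beside 15.8% and 12.3%. Of 29 named cases of a set apart, 27 stayed so with TMM, 28 with DESeq2 factors or unstranded counts, and 22 after thinning. Lost after thinning were LINC00993, LINC01091 and LINC01589 above in 1/5/9 and LINC00632 below in 4/8/12. In 3/7/11, LINC01979 above and LINC02747 and LINC00294 below were lost too. Over all genes, 1 was called for doxycycline in the Y273F line without Y273F control 2, Y273F doxycycline 2 or Y273F doxycycline 3, 1 for the difference without Y273F doxycycline 2 or 3, and for the control groups 2 with DESeq2 and 1 without Y273F control 2. Low counts limit the 53 genes with a median under 1 CPM.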
